A study of Mus musculus with 21 samples.

Results

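The ligands of the tumour necrosis factor (TNF) superfamily were followed across T cells of mice that had had a myocardial infarction, the loss of heart muscle after its blood supply fails. They were chosen by gene symbol, and 9 of the 49510 genes in the count table belong to the set: Tnfsf8, Tnfsf10, Tnfsf11, Tnfsf14, Tnf, Lta, Ltb, Cd40lg and Fasl. All 9 passed the filter on low counts, which kept 14996 genes. The animals carried Foxp3-GFP, a fluorescent reporter of the transcription factor that defines regulatory T cells, were 8 weeks old and were sampled 7 days after the infarct. All groups share the reporter, the age and the infarct, and no uninjured or sham-operated group was analysed here. Regulatory T cells (Tregs), which restrain immune responses, were taken from 4 sites, namely heart, spleen, the heart-draining mediastinal lymph node (MLN) and a lymph node that does not drain it (NDLN). Conventional T cells (Tconvs), T cells that are not Tregs, were taken from all of these but the MLN. Each of these 7 groups had 3 libraries, made with an ultra-low-input kit from cells sorted by beads and then by flow cytometry. Whether replicates were separate animals or pools is not in the labels, so p-values measure the spread between libraries, which may be partly technical.

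TNF superfamily ligands are mostly membrane proteins that act as trimers on receptors of the TNF receptor superfamily, either on the cell surface or after being cut off by a protease. Some receptors carry a death domain and can start apoptosis. Others recruit TRAF adaptors and switch on NF-kB, which supports survival, costimulation and inflammation. In T cells most of these genes respond to antigen receptor signals, so that the ligands couple T cell activation to B cells, dendritic cells, macrophages and stromal cells. In the injured heart TNF is a classical inflammatory cytokine.

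The libraries held 14515387 to 28323649 counts, with at least 1 count in 9469 to 16239 genes. Replicates varied widely, with a biological coefficient of variation of 1.48 over all genes. Mitochondrial rRNA took 0.0567 to 0.102% of counts in 5 libraries, namely replicate 1 of heart Tregs and replicates 1 and 2 of heart Tconvs and of MLN Tregs, and 0.954 to 12.3% in the other 16, which include all spleen and NDLN libraries. Levels are CPM, counts scaled with TMM factors to a common library size, given per library or as mean ± SD (n = 3). Sums over marker lists are CPM of the library total. The 6 T cell markers (Cd3d, Cd3e, Cd3g, Cd247, Cd4 and Lck) summed to 3782 to 6396 CPM in every library, and Foxp3 was called higher in Tregs of heart, spleen and NDLN. In these bulk libraries fewer cells that make a transcript and less of it per cell cannot be told apart.

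Ltb, which encodes the membrane anchor of the lymphotoxin heterotrimer, had the highest mean level per length of transcript of the 9 ligands in every group. Its mean ran from 239 CPM per kb of exon in MLN Tregs to 807 in spleen Tconvs. By library it was highest in 16 of 21. Another ligand was highest in 5, namely replicates 1 and 2 of MLN Tregs (Lta, with 42.8 and 41.4 CPM per kb against 1.32 and 2.1 for Ltb), heart Treg replicate 1 (Tnfsf8), heart Tconv replicate 2 (Fasl) and NDLN Tconv replicate 3 (Cd40lg). The mean of MLN Tregs thus rests on replicate 3. Cd40lg followed in Tconvs, with 245 to 262 CPM per kb, and had 20.2 to 27.3 in the Treg groups. Tnfsf14 and Tnfsf10 were low throughout, with group means of 0 to 5.8 and 1.04 to 4.24 CPM per kb. In heart Tconvs Fasl reached 161, Tnfsf11 102, Tnfsf8 69.8 and Tnf 54 CPM per kb. In NDLN Tconvs the same 4 ligands stood at 0.0547, 0, 66.1 and 10.5, so that the range between tissues depended strongly on the ligand.

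**Figure D1:**
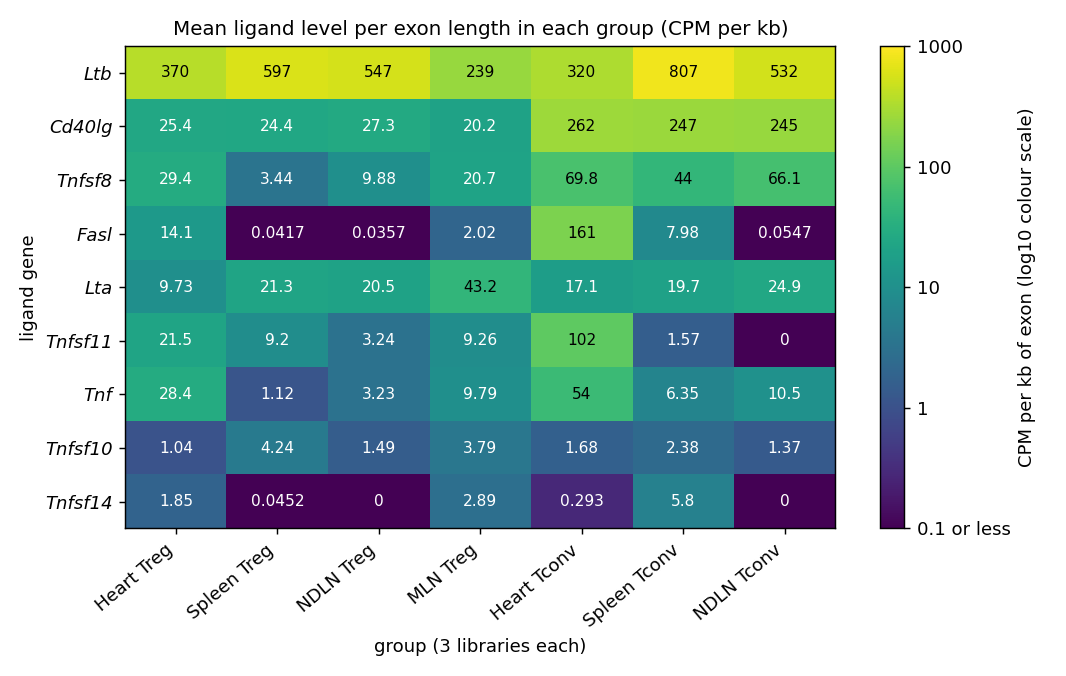
Heat map of the mean TMM-scaled CPM per kb of exon of each of the 9 ligands (rows) in the 7 groups (columns), averaged over 3 libraries. Ltb is the highest row in every column, Cd40lg is high in the Tconv columns, and Fasl, Tnfsf11 and Tnf are highest in heart Tconvs.

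**Figure D2:**
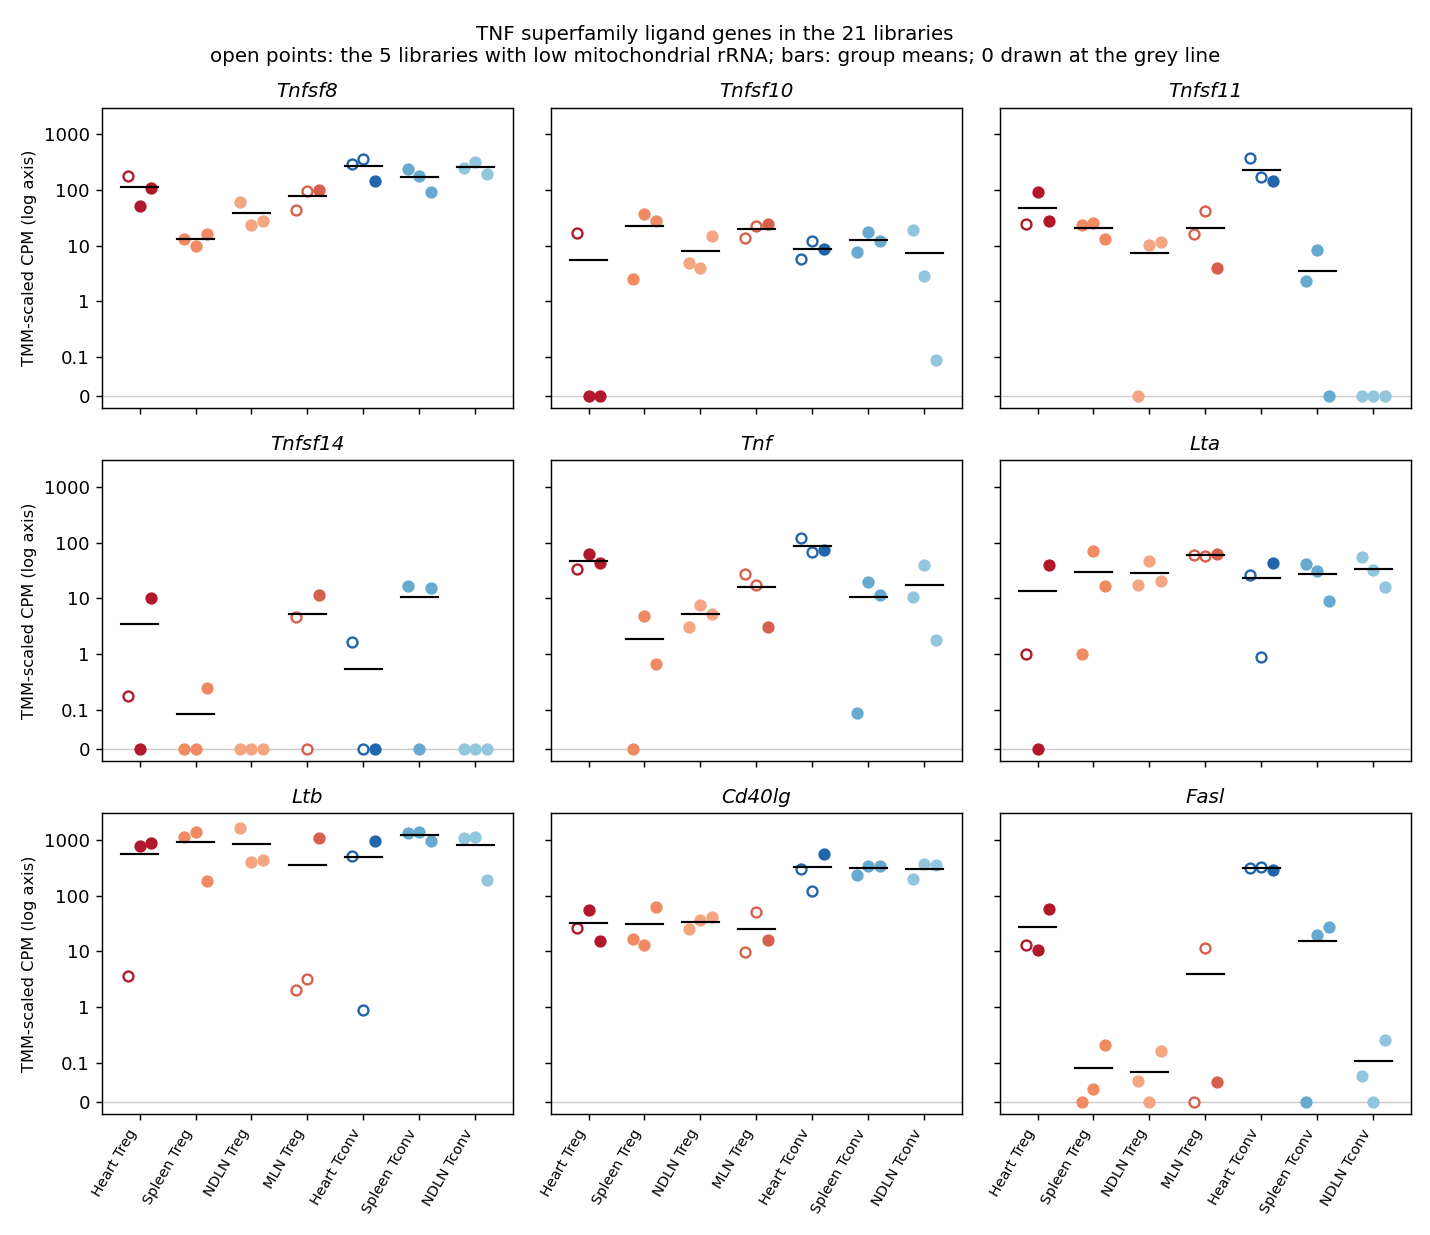
TMM-scaled CPM (log axis, 0 drawn at the grey line) of each ligand in the 21 libraries by group. Open points are the 5 libraries with little mitochondrial rRNA and bars are group means; Cd40lg separates Tregs from Tconvs and Fasl lies near 300 CPM in all heart Tconv libraries.

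Cd40lg and Tnfsf8 were the ligands that differed between Tregs and Tconvs when heart, spleen and NDLN were averaged. Of the 9 ligands 2 were called lower in Tregs and 0 higher, where 0.5% of all genes tested were called lower and 1.81% in either direction (edgeR quasi-likelihood test, Benjamini-Hochberg). A further 2, Tnfsf11 and Fasl, had an unadjusted p under 0.05, as 14.2% of genes had, and did not pass. The median log2 fold change was -1.02 over 8 ligands, leaving out Tnfsf14, whose error could not be estimated and whose own value of -1.42 is the median of all 9. Over all genes tested the median was 0.04. Within a tissue 0 ligands were called in heart, 1 in spleen and 1 in NDLN, where 0.0667%, 0.06% and 0.3% of genes were called. In heart 2 ligands had an unadjusted p under 0.05 (7.81% of genes), and DESeq2 called 1 (Cd40lg) and limma-voom 1 (Fasl). Shares of all genes are given for edgeR only, here and below. Counts of calls by DESeq2 or limma-voom are therefore not a result about the ligands or lists. Tnfsf8 and Cd40lg lay lower in all Treg libraries than in all Tconv libraries of spleen and of NDLN. Taken singly, 5.67% of genes did so in spleen and 4.16% in NDLN, and the share for both is not given here.

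Cd40lg (ENSMUSG00000031132, chromosome X, 57212143 to 57224042, plus strand, protein coding) encodes CD40 ligand, the helper signal that licenses B cells, dendritic cells and macrophages through CD40. In heart Tregs it stood at 26.1, 54.1 and 15.1 CPM, and in heart Tconvs at 306, 121 and 557. The groups lay apart, with the lowest Tconv library above every Treg library. Spleen Tregs had 16.7, 12.9 and 61.9 CPM and spleen Tconvs 239, 345 and 340. NDLN Tregs had 24.7, 37 and 40.8 CPM, against 196, 365 and 359 in NDLN Tconvs. The gap was thus free of overlap in each of the 3 tissues, a pattern that 1 of the 9 ligands and 46 of the 14996 genes tested (0.307%) showed with Tregs lower. MLN Tregs, at 9.67, 50.1 and 16 CPM, lay within the range of the other Treg groups.

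The 3-tissue average of Cd40lg was 32.2 CPM in Tregs and 314 in Tconvs, 9.77-fold lower (log2 fold change -3.29, SE 0.41, adjusted p = 0.00011, edgeR). Its means were 10.3-fold lower in heart, 10.1-fold in spleen and 8.97-fold in NDLN, and none of these passed alone (adjusted p = 0.1, 0.12 and 0.061). DESeq2 called all 3, with adjusted p of 5.3e-05, 4.8e-05 and 4.2e-05. The Treg minus Tconv difference of heart departed from that of the lymphoid tissues by -0.12 on the log2 scale (SE 0.80, adjusted p = 1). In Tconvs the level was flat across tissues, with 328 ± 219 CPM in heart, 308 ± 59.8 in spleen and 307 ± 96 in NDLN, and heart differed from lymphoid Tconvs by 0.09 (SE 0.56, adjusted p = 0.98). This direction was negative with limma-voom and when some libraries were left out.

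Tnfsf8 (ENSMUSG00000028362, chromosome 4, 63831308 to 63861347, minus strand) encodes CD30 ligand, a costimulatory ligand of activated T cells. It stood at 294, 358 and 145 CPM in heart Tconvs, 233, 177 and 91.2 in spleen Tconvs and 248, 315 and 193 in NDLN Tconvs. Spleen Tregs were lowest, with 13.2, 9.83 and 16.2 CPM, followed by NDLN Tregs with 61.5, 23.6 and 27.8. The libraries of Tregs and Tconvs lay apart in spleen and NDLN. In heart they overlapped, since heart Tregs had 178, 51.4 and 106 CPM, and replicate 1 exceeded the lowest heart Tconv library. MLN Tregs had 42.7, 94.1 and 99.9 CPM.

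Over the 3 tissues Tnfsf8 averaged 54.2 CPM in Tregs and 228 in Tconvs (log2 fold change -2.56, SE 0.31, adjusted p = 8.4e-05, edgeR). It was lower in Tregs of spleen (-3.68, SE 0.57, adjusted p = 0.0059) and of NDLN (-2.74, SE 0.54, adjusted p = 0.03). In heart the difference was -1.25 (SE 0.52, adjusted p = 0.6). The contrast between tissues themselves, heart against the mean of spleen and NDLN, was 1.96 (SE 0.63, unadjusted p = 0.005476, adjusted p = 0.49), which edgeR did not call and DESeq2 did (adjusted p = 0.03482). The spleen call was lost without spleen Treg replicate 1 (adjusted p = 0.059) or 2 (0.089). The NDLN call was lost without NDLN Treg replicate 2 (0.15) or 3 (0.13) and without NDLN Tconv replicate 1 (0.059) or 2 (0.082). Limma-voom gave 0.13 in spleen and 0.054 in NDLN, and a fit on the groups of the comparison alone 0.14 and 0.25.

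Among Tregs Tnfsf8 was higher in heart than in spleen, 112 ± 63.5 against 13.1 ± 3.19 CPM (8.55-fold, log2 fold change 3.10, SE 0.55, adjusted p = 0.022, edgeR). The libraries did not overlap, as for 6.66% of genes, and 0.147% of genes were called in that comparison. Against the mean of the lymphoid Treg groups, 43.2 CPM, it was also higher (log2 fold change 1.72, SE 0.38, adjusted p = 0.03). Against NDLN Tregs alone it was 1.57 (SE 0.52, adjusted p = 0.2), and against MLN Tregs 0.50 (adjusted p = 0.9). MLN Tregs in turn had 6.03-fold more than spleen Tregs without overlap, as 6.62% of genes did (unadjusted p = 0.0001064). There 0 genes (0%) were called by edgeR (adjusted p = 0.72), while DESeq2 called Tnfsf8 (0.00013). Heart Treg replicate 1, one of the 5 libraries with little mitochondrial rRNA, had the highest Tnfsf8 of the Treg libraries.

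These heart Treg calls rest on few libraries. The call against spleen Tregs was lost without spleen Treg replicate 1 (adjusted p = 0.11), 2 (0.15) or 3 (0.11) and without heart Treg replicate 1 (0.06). The call against lymphoid Tregs was lost without spleen Treg replicate 1 (0.052) or 2 (0.068), NDLN Treg replicate 2 (0.07) or 3 (0.068), heart Treg replicate 1 (0.19) or 3 (0.097) or heart Tconv replicate 1 (0.051). Within the 16 libraries with more mitochondrial rRNA the differences were 2.60 and 1.11, with adjusted p of 0.1 and 0.58. Limma-voom gave adjusted p of 0.18 and 0.12.

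Fasl and Tnfsf11 were higher in heart Tconvs than in lymphoid Tconvs, and the Tnf levels of heart Tconvs lay above those of every lymphoid Tconv library without passing the test. Against the mean of lymphoid Tconvs 2 of the 9 ligands, Tnfsf11 and Fasl, were called higher in heart Tconvs and 0 lower, where 4.58% of genes were called and 2.68% were called higher. All genes together were shifted towards heart Tconvs in that comparison, with a median log2 fold change of 0.54, against 0.37 over the 9 ligands. Against NDLN Tconvs Tnfsf11 and Fasl were called higher as well (2.88% of genes were called there, and 1.54% higher), and against spleen Tconvs 0 were called (0.473% of genes) by edgeR and limma-voom, 1 by DESeq2, with 2 at an unadjusted p under 0.05 (12.5% of genes). Fasl, Tnfsf11 and Tnf lay above every spleen Tconv and every NDLN Tconv library in all heart Tconv libraries. Taken singly, 14.3% of genes did so against spleen and 16.6% against NDLN Tconvs. The share of genes above both groups is not given here. Among Tregs 2 ligands, Tnfsf8 and Fasl, were called higher in heart than in the lymphoid mean, where 0.967% of genes were called and 0.767% were called higher. Against NDLN Tregs alone 0 ligands were called by edgeR (0.533% of genes), with 3 at an unadjusted p under 0.05 (15.5% of genes), 2 calls by DESeq2 and 1 by limma-voom. Against MLN Tregs 0 were called by edgeR, DESeq2 and limma-voom (0.0667% of genes in edgeR), and 0 had an unadjusted p under 0.05 (9.58% of genes).

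Fasl (ENSMUSG00000000817, chromosome 1, 161780689 to 161788495, minus strand) encodes Fas ligand, which triggers apoptosis in cells that carry Fas. Heart Tconvs had 318, 321 and 295 CPM. The next group, heart Tregs, had 13.2, 10.8 and 58.2 CPM and lay apart from them. Spleen Tconvs had 0, 19.5 and 26.9 CPM, and MLN Tregs 0, 11.7 and 0.0454. In NDLN Tconvs there were 1, 0 and 3 counts, in spleen Tregs 0, 1 and 5, and in NDLN Tregs 1, 0 and 4. Fasl was therefore nearly absent from both NDLN groups and from spleen Tregs at the depth of these libraries.

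Heart Tconvs exceeded NDLN Tconvs in Fasl by a ratio of means of 2941, with only 4 counts in the lower group (adjusted p = 0.02, edgeR). Against the lymphoid Tconv mean of 7.78 CPM the ratio was 40-fold (fitted log2 fold change 7.99, SE 1.67, adjusted p = 0.0098), and against spleen Tconvs 20.2-fold (adjusted p = 0.36). Heart Tregs had 27.4 ± 26.7 CPM against 1.35 over lymphoid Tregs (20.2-fold, fitted log2 fold change 6.52, SE 1.35, adjusted p = 0.017). That fold was 476 without MLN Treg replicate 2, which held most of the lymphoid counts, and 8.85 without heart Treg replicate 3. Heart Tregs and Tconvs were 11.4-fold apart without overlap, and this did not pass (adjusted p = 0.6).

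The call of Fasl against NDLN Tconvs was lost without NDLN Tconv replicate 1 (adjusted p = 0.085), 2 (0.082) or 3 (0.053) and without heart Tconv replicate 1 (0.064) or 2 (0.057). The call in heart Tregs was lost without spleen Treg replicate 1 (0.057) or 2 (0.068), NDLN Treg replicate 1 (0.06) or 2 (0.061) or heart Treg replicate 3 (0.11). Within the 16 libraries with more mitochondrial rRNA the adjusted p of Fasl was 0.11 against NDLN Tconvs, 0.1 against lymphoid Tconvs and 0.15 for heart against lymphoid Tregs. Heart Tconv replicate 3, the library of its group with more mitochondrial rRNA, had 295 CPM of Fasl, close to 318 and 321 in the other two. Transcripts of CD8 and NK cells moved with Fasl in part. The 9 markers of that list summed to 1355 to 2424 CPM in heart Tconvs, 99.3 to 1390 in heart Tregs, 486 to 2366 in spleen Tconvs, 104 to 178 in NDLN Tconvs, 236 to 600 in spleen Tregs, 226 to 427 in NDLN Tregs and 127 to 439 in MLN Tregs. Nkg7, a granule protein gene of cytotoxic cells, made up most of the list, at 1185 ± 441 CPM in heart Tconvs. It was called higher there than in NDLN Tconvs (log2 fold change 4.67, adjusted p = 0.01, edgeR) and in lymphoid Tconvs (2.67, adjusted p = 0.025), the comparisons in which Fasl was called. The lymphoid mean includes NDLN, and edgeR did not call Nkg7 or Fasl against spleen Tconvs. Sums of the list overlapped between heart and spleen Tconvs, whereas the Fasl libraries of these groups lay apart. Ncr1, the defining receptor gene of NK cells, was at 0 there and Cd8a at 2.3 CPM. The part of such cells in the Fasl difference was not tested.

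Tnfsf11 (ENSMUSG00000022015, chromosome 14, 78277445 to 78308043, minus strand) encodes RANKL, which drives osteoclast formation and acts on dendritic cells and lymphoid stroma through RANK. Heart Tconvs had 374, 170 and 143 CPM. Heart Tregs had 24.1, 92.3 and 27.5 CPM, and lay apart from heart Tconvs. In NDLN Tconvs all 3 libraries were at 0, and spleen Tconvs had 2.34, 8.18 and 0 CPM. Among lymphoid Tregs the levels were 23.6, 25 and 13.1 CPM in spleen, 16.1, 42 and 3.99 in MLN, and 0, 10.2 and 11.5 in NDLN. By group means heart Tconvs were thus the highest and lymphoid Tconvs the lowest, with the 4 Treg groups in between, and NDLN Tregs overlapped both lymphoid Tconv groups.

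Against NDLN Tconvs Tnfsf11 was at least 4015-fold higher in heart Tconvs, with NDLN set to 3 counts over the group (adjusted p = 0.0071, edgeR). Against the lymphoid Tconv mean of 1.78 CPM, with NDLN at the same floor, it was at least 129-fold higher (fitted log2 fold change 10.67, SE 1.66, adjusted p = 0.0017). Against spleen Tconvs it was 65.3-fold higher without overlap and did not pass (adjusted p = 0.12). Both calls held when any single library was left out, with adjusted p of at most 0.021 and 0.0069. Within the 16 libraries, where heart Tconvs keep only replicate 3, whose spread is taken from the other groups, they were 0.1 and 0.074 at fitted log2 fold changes of 14.63 and 9.99.

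The order of Treg and Tconv libraries in Tnfsf11 turned over between tissues. In heart all Treg libraries lay below all Tconv libraries (4.78-fold lower mean, adjusted p = 0.7). In spleen all Treg libraries lay above all Tconv libraries (5.87-fold higher, adjusted p = 0.67), a separation that 7.12% of genes showed, and in NDLN the Treg mean was at least 127-fold higher (adjusted p = 0.091). None of these passed in edgeR, and the tissue contrast of the difference was -8.70 on the log2 scale (SE 2.21, unadjusted p = 0.0009574, adjusted p = 0.49). For that contrast edgeR and limma-voom called 0 ligands and DESeq2 called 2, Tnfsf11 and Tnfsf8; 0.00667% of genes were called by edgeR, and 2 ligands had an unadjusted p under 0.05 (8.31% of genes). The fitted log2 differences were -2.26 in heart, 2.55 in spleen and 10.33 in NDLN. Their average is positive (3.54, SE 1.06, adjusted p = 0.1, edgeR) although the mean CPM was 25.3 in Tregs and 77.5 in Tconvs. That average rests mainly on NDLN, where the fitted size depends on the prior count because NDLN Tconvs held 0 counts.

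Tnf (ENSMUSG00000024401, chromosome 17, 35199381 to 35202007, minus strand) encodes TNF, the founding inflammatory cytokine of the family. Heart Tconvs had 122, 68.4 and 75.4 CPM and heart Tregs 34.4, 63 and 42.4. Both heart groups lay above every lymphoid group of their own cell type. MLN Tregs had 27.7, 17.3 and 3.13 CPM, NDLN Tregs 3.05, 7.49 and 5.35, and spleen Tregs 0, 4.83 and 0.668. Spleen Tconvs had 0.0866, 19.5 and 11.6 CPM and NDLN Tconvs 10.8, 39.3 and 1.81. Tnf was the only one of the 9 ligands that separated heart without overlap from each of the 3 lymphoid Treg groups, and it separated heart from both lymphoid Tconv groups as well. Taken singly, the share of genes higher and apart in heart was 6.66% against spleen Tregs, 8.5% against NDLN Tregs and 4.7% against MLN Tregs. The share of genes apart in all of these comparisons together is not given here.

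In spite of that separation edgeR called Tnf in 0 of 16 comparisons, with 3 at an unadjusted p under 0.05, 2 called by DESeq2 and 2 by limma-voom. Heart Tregs had 46.6 ± 14.7 CPM against 7.73 over lymphoid Tregs, 6.04-fold higher (log2 fold change 3.11, SE 1.07, unadjusted p = 0.008682, adjusted p = 0.18). Heart Tconvs had 88.6 ± 29 CPM against 13.8 over lymphoid Tconvs, 6.4-fold higher (log2 fold change 2.72, SE 1.21, adjusted p = 0.18). The Treg difference was called by DESeq2 (adjusted p = 0.031), limma-voom (0.023) and edgeR without the filter (0.034), and the Tconv difference by limma-voom (0.026). Within the 16 libraries with more mitochondrial rRNA the fitted log2 differences were 4.08 and 2.49 (adjusted p = 0.593 and 0.765). Between heart Tregs and heart Tconvs the mean differed 1.9-fold without overlap (adjusted p = 1). In that comparison 4 ligands (Tnfsf11, Tnf, Cd40lg and Fasl) lay lower and apart in heart Tregs, as 8.17% of genes did.

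Macrophages are a main source of TNF, and transcripts listed as markers of other cell types were counted in heart and lymphoid libraries. The 9 macrophage and monocyte markers summed to 530 to 1045 CPM in heart Tregs and 198 to 577 in heart Tconvs. The sums were 372 to 400 CPM in spleen Tregs, 201 to 293 in NDLN Tregs and 93.4 to 670 in MLN Tregs. Lymphoid Tconvs had 0.153 to 161 CPM. Of the 9, Csf1r, Adgre1, C1qa and C1qb were at 0 in all heart Treg libraries. The heart Treg sums thus came from the rest of the list, namely Lyz2, Cd14, Cd68, Ccr2 and Itgam. Csf1r and Itgam were at 0 in all heart Tconv libraries. The 9 dendritic cell markers summed to 93.5 to 760 CPM in heart Tregs, 44 to 1124 in heart Tconvs, 38 to 2090 in lymphoid Tregs and 0.204 to 246 in lymphoid Tconvs. Of these, Flt3, Itgax and Clec9a were at 0 in all heart Treg libraries and Itgax in all heart Tconv libraries. H2-Aa, a class II antigen presentation gene, was called higher in heart than in NDLN Tconvs (log2 fold change 10.97, adjusted p = 0.0029, edgeR). It was also higher in heart than in lymphoid Tconvs (5.91, adjusted p = 0.0035). Fasl and Tnfsf11 were called in the same comparisons. H2-Aa was not called in heart against spleen Tconvs, and was called lower in NDLN than in spleen Tconvs (-10.13, adjusted p = 0.019, edgeR). In Tregs H2-Aa was called lower in heart than in the lymphoid groups (-10.36, adjusted p = 0.0026). The 9 B cell markers summed to at most 47.5 CPM in the heart groups and to 43.3 to 490 in lymphoid Tregs. The 8 fibroblast markers summed to 145 to 495 CPM in heart Tregs and 1.44 to 185 in heart Tconvs, and to at most 5.18 elsewhere. The 6 erythroid markers summed to 1221 to 23817 CPM in spleen Tregs, 342 to 30059 in MLN Tregs and 348 to 1159 in spleen Tconvs. They reached at most 30.6 CPM in the heart groups, 14.2 in NDLN Tregs and 20.9 in NDLN Tconvs. Markers of innate lymphoid cells, a non-T-cell source of RANKL and lymphotoxin, summed to 2174 to 3150 CPM in heart Tregs, 2008 to 2638 in heart Tconvs, 624 to 1445 in lymphoid Tregs, 1582 to 3646 in spleen Tconvs and 978 to 1376 in NDLN Tconvs. T cells express several of these. Id2 was called higher in heart than in lymphoid Tregs (log2 fold change 1.86, adjusted p = 0.0063, edgeR) and Il1rl1 in heart than in lymphoid Tconvs (6.30, adjusted p = 0.036), while Kit had 0.567 and 0.796 CPM in heart Tregs and Tconvs. The part of any of these cells in the ligand levels was not tested.

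The 250 bases before the RefSeq start of Fasl, Tnfsf11 and Tnf are shown because their heart Tconv libraries lay above all lymphoid Tconv libraries, of which edgeR called Fasl and Tnfsf11, and those of Lta because it neighbours Tnf and had another pattern. They are on the minus strand of GRCm38.p6, at chr1:161788496-161788745, chr14:78308044-78308293, chr17:35202008-35202257 and chr17:35205352-35205601, and read 5′ to 3′ up to the base before the start. Capitals mark GGAAA, the core that NFAT factors of T cell activation bind, or its reverse complement TTTCC.
Fasl: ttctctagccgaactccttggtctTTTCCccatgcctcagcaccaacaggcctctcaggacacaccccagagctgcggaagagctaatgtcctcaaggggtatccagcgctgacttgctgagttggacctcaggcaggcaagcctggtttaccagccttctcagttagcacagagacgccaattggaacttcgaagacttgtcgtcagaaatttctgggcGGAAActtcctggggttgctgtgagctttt
Tnfsf11: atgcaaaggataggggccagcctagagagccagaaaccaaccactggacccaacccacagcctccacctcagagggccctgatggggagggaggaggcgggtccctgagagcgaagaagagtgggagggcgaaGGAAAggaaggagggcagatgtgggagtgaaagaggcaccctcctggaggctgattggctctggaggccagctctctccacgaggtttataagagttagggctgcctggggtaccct
Tnf: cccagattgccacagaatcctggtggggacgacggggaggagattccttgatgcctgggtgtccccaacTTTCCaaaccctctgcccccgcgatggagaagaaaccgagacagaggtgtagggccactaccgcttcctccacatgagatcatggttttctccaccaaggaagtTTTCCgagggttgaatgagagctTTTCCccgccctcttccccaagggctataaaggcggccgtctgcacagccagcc
Lta: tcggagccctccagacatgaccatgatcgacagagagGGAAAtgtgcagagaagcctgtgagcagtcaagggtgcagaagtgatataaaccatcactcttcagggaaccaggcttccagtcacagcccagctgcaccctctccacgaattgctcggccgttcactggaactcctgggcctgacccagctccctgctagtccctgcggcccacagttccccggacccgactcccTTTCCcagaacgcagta
The core began 226 and 30 bases before the start in Fasl, 117 in Tnfsf11, 181, 77 and 54 in Tnf, and 213 and 17 in Lta. It was present on either strand in all 8 ligand promoters with an entry, and in 55.6% of 32817 promoters of that length. A match of these letters is a description of the sequence and does not show binding.

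Tnf, Lta and Ltb lie side by side on chromosome 17, with 1157 bases between Tnf and Lta, 3060 between Ltb and Tnf and 0 coding genes between them, but their RNA did not follow one pattern. Across the 21 libraries log2 CPM of Tnf correlated with Lta at a Pearson r of -0.07 and with Ltb at -0.31, as a description of libraries that share their groups. The part in these values of the libraries with little mitochondrial rRNA was not tested. Tnf correlated with Fasl, on chromosome 1, at 0.68. No gene shares exon bases with any of the 3.

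Lta (ENSMUSG00000024402, chromosome 17, 35203165 to 35205351, minus strand) encodes lymphotoxin alpha, which is secreted alone or held at the surface by lymphotoxin beta and shapes lymphoid tissue. It was highest in MLN Tregs, at 59.1, 57.2 and 62.7 CPM, a spread of 2.76 (SD). These libraries lay above all those of the next group, NDLN Tconvs, with 55, 32.3 and 16 CPM. NDLN Tregs had 17.2, 47.1 and 20.6 CPM, spleen Tregs 1, 70.3 and 17.1, and spleen Tconvs 41, 31.6 and 9.1. Heart groups were uneven, with 26.9, 0.903 and 43.1 CPM in Tconvs and 1.01, 0 and 39.3 in Tregs. The heart Treg libraries all lay below the MLN Treg libraries (4.44-fold lower mean, log2 fold change -2.15, SE 1.63, adjusted p = 0.74), where 7.7% of genes lay lower and apart. MLN exceeded NDLN Tregs 2.11-fold without overlap, as 9.4% of genes did (log2 fold change 1.08, SE 1.58, adjusted p = 0.95; 0.00667% of genes were called). Lta was called in 0 of 16 comparisons by edgeR, DESeq2 and limma-voom, and had an unadjusted p under 0.05 in 0.

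Ltb (ENSMUSG00000024399, chromosome 17, 35194439 to 35196320, plus strand) separated libraries rather than groups. Spleen Tconvs had 1319, 1411 and 941 CPM, spleen Tregs 1123, 1408 and 183, NDLN Tregs 1652, 406 and 429, and NDLN Tconvs 1103, 1124 and 195. In MLN Tregs the values were 2.01, 3.19 and 1080, in heart Tregs 3.57, 778 and 900, and in heart Tconvs 513, 0.903 and 942. The 4 libraries at 0.903 to 3.57 CPM are all among the 5 with little mitochondrial rRNA, of which heart Tconv replicate 1 had 513. The other 16 libraries ran from 183 to 1652 CPM. Neighbouring groups in the order of means overlapped, 0 of 16 comparisons were called by edgeR, DESeq2 or limma-voom or had an unadjusted p under 0.05, and the Treg and Tconv averages differed by a log2 fold change of -0.06, whose sign turned with limma-voom. The part of the library set in these levels was not tested.

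**Figure D3:**
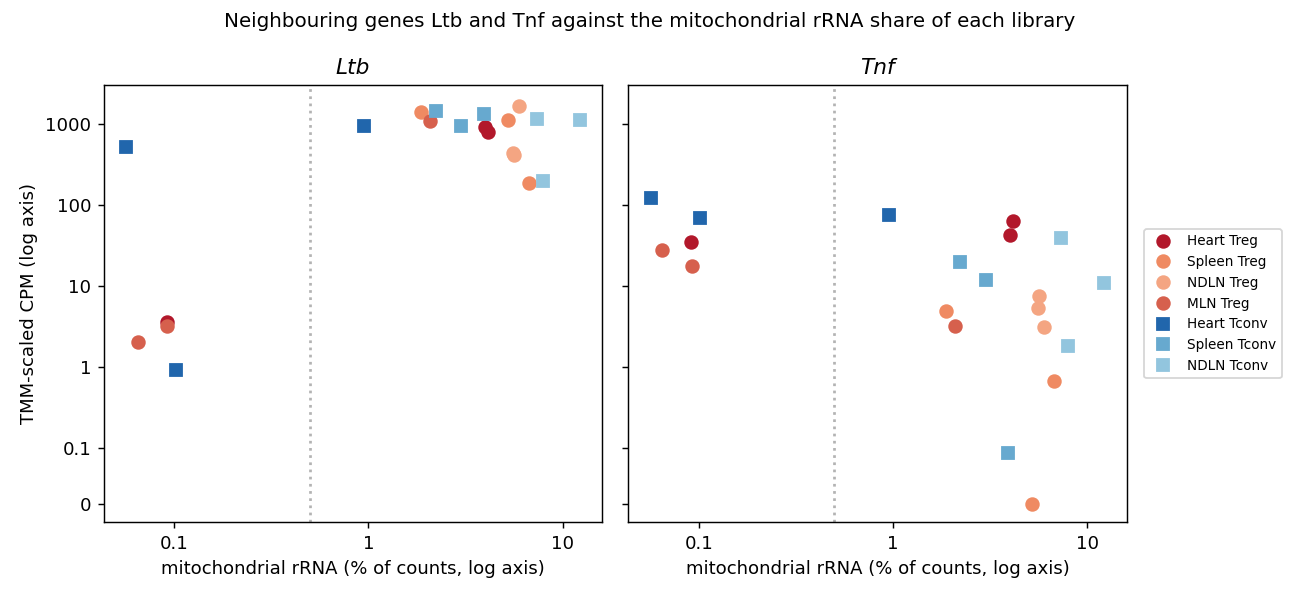
TMM-scaled CPM of Ltb and Tnf (log axes) against the share of counts from mitochondrial rRNA in each of the 21 libraries, with circles for Tregs, squares for Tconvs and a dotted line at 0.5%. Of the 5 libraries left of the line 4 have Ltb at 0.903 to 3.57 CPM. In all 5 Tnf runs from 17.3 to 122 CPM (median 34.4), against 0 to 75.4 (median 6.42) in the other 16. The 5 are heart or MLN libraries and the 16 include all spleen and NDLN libraries, so tissue and library set are mixed in these ranges.

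Tnfsf10 (ENSMUSG00000039304, chromosome 3, 27317028 to 27342427, plus strand) encodes TRAIL, a ligand of death receptors. Its group means ran from 5.49 ± 9.51 CPM in heart Tregs to 22.3 ± 17.9 in spleen Tregs, with 20 ± 5.42 in MLN Tregs. Heart Tregs had 16.5, 0 and 0 CPM, and all neighbouring groups overlapped. Tnfsf14 (ENSMUSG00000005824, chromosome 17, 57189492 to 57194177, minus strand) encodes LIGHT, a costimulatory ligand of HVEM and the lymphotoxin beta receptor. It was at 0 in all NDLN libraries of both cell types. The highest values were 16.8, 0 and 15.3 CPM in spleen Tconvs, 4.59, 0 and 11.4 in MLN Tregs and 0.176, 0 and 10.1 in heart Tregs. Its standard error in the average Treg and Tconv comparison could not be estimated. Of 16 comparisons edgeR, DESeq2 and limma-voom called 0 for either gene, with an unadjusted p under 0.05 in 0 for Tnfsf10 and 4 for Tnfsf14.

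**Figure D4:**
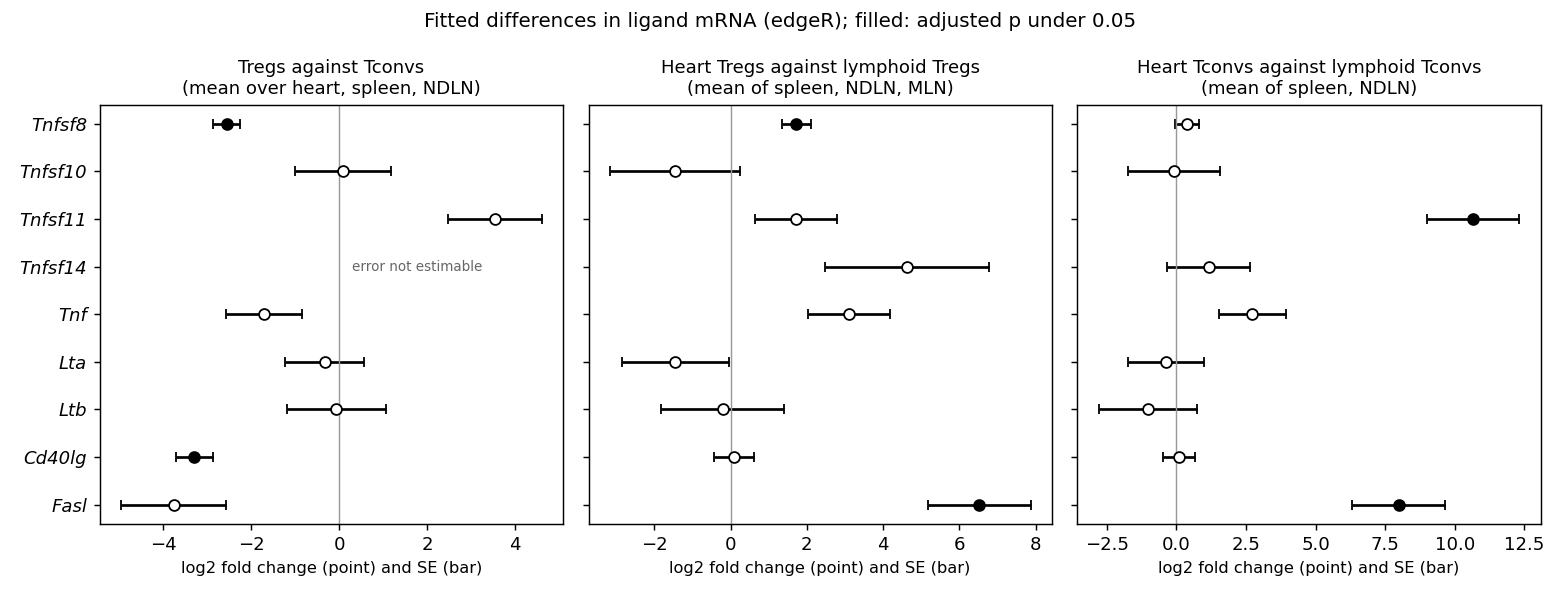
Log2 fold change ± SE of the 9 ligands in 3 panels: Tregs against Tconvs over heart, spleen and NDLN, heart against lymphoid Tregs, and heart against lymphoid Tconvs. Filled points have an edgeR adjusted p under 0.05: Tnfsf8 and Cd40lg in the first panel, Tnfsf8 and Fasl in the second, Tnfsf11 and Fasl in the third; the error of Tnfsf14 in the first panel could not be estimated.

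Stability of the messenger RNA is a known point of control for several ligands, through AU-rich elements in the 3′ untranslated region that proteins such as Zfp36 bind for decay. The extended element TATTTAT occurred 8 times in the 764 bases of Tnf, where 19.2% of 2341 regions of like length hold it at least once. It occurred 3 times in the 572 bases of Lta (14.9% of regions of its length) and 0 times in the 174 bases of Ltb (4.94%). The densest windows of 30 bases are shown for Tnf and Lta, with the pentamer ATTTA in capitals, because these neighbours differ in how closely the elements cluster.
Tnf: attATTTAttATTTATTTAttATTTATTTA
Lta: tATTTAtggagagaaaagttaagttATTTA
Zfp36, whose product destabilises such messages, reached 1023 ± 309 CPM among heart Tconvs and 933 ± 20.4 among heart Tregs. It was at 185 and 126 CPM in spleen and NDLN Tconvs and at 278, 178 and 503 in spleen, NDLN and MLN Tregs. Heart Tconvs exceeded the lymphoid Tconv mean in Zfp36 (log2 fold change 2.74, SE 0.61, adjusted p = 0.014, edgeR) and NDLN Tconvs (3.02, adjusted p = 0.041). It was the 1 of 9 tested regulators of such messages that edgeR called, in 2 of their 144 results over 16 comparisons (11 with DESeq2, 6 with limma-voom), both among the 4.58% and 2.88% of genes called in these. Tnf and Zfp36 messages were thus both at their highest group mean in heart Tconvs.

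Of 12 receptor genes for the 9 ligands 9 were tested. Tnfrsf1b, which encodes the TNF receptor TNFR2, was the only one called by edgeR, in 5 of their 144 results over 16 comparisons (27 with DESeq2, 6 with limma-voom). The share of all genes that DESeq2 and limma-voom called is not given here. In those 5, the share of all genes called was 0.3% for NDLN Tregs against Tconvs and 1.81% for the 3-tissue average. For heart Tconvs it was 0.473% against spleen, 2.88% against NDLN and 4.58% against lymphoid Tconvs. Tnfrsf1b was higher in Tregs than in Tconvs over the 3 tissues (log2 fold change 4.67, SE 0.55, adjusted p = 6.2e-05, edgeR). It was also higher in heart than in lymphoid Tconvs (7.24, adjusted p = 7.1e-05). Mean levels were 187, 116, 84.9 and 66.5 CPM for heart, MLN, NDLN and spleen Tregs, and 113, 2.8 and 0.221 for heart, spleen and NDLN Tconvs. Fas, the receptor of Fas ligand, had group means of 56.5 to 129 CPM. The receptor of CD30 ligand, Tnfrsf8, was at 11.1 CPM in heart Tregs and at 0 in spleen and NDLN Tconvs. RANK (Tnfrsf11a) and the lymphotoxin beta receptor (Ltbr) were at 0 in all groups but heart Tconvs, where they had 0.685 and 0.562 CPM, and Cd40 reached at most 4.27 CPM as a group mean. The receptors of RANKL, lymphotoxin beta and CD40 ligand were thus low or near 0 in these T cells.

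Among 12 adaptor and death signalling genes, all tested, Traf1 and Birc3 were called by edgeR, in 8 of their 192 results over 16 comparisons (26 with DESeq2, 13 with limma-voom), each of the 8 with heart the higher side. Of all genes 0.967% were called for heart against lymphoid Tregs and 4.58% for heart against lymphoid Tconvs. Traf1, a TRAF adaptor induced by NF-kB, was at 548 CPM in heart Tregs and 85.6, 52.6 and 161 in spleen, NDLN and MLN Tregs (against their mean, log2 fold change 2.61, SE 0.29, adjusted p = 5.9e-05, edgeR). In Tconvs it was at 354 CPM in heart and 35.4 and 67.5 in spleen and NDLN (2.86, adjusted p = 7.1e-05). Birc3, an inhibitor of cell death that binds TRAF proteins, was at 167 CPM in heart Tconvs and 28 in NDLN Tconvs (adjusted p = 0.039). Of 9 further ligand genes of the family 4 were tested, and of their 64 results edgeR called 0, with 9 at an unadjusted p under 0.05, 9 called by DESeq2 and 2 by limma-voom. Tnfsf9, a costimulatory ligand, had 32.8 ± 30.3 CPM among heart Tregs, 20.5 ± 22.5 among NDLN Tconvs and 16.1 ± 7.55 among heart Tconvs, and 1.01 to 9.41 in the other groups. Of 6 genes of ligand shedding 4 were tested, and edgeR called 0 of 64 results, with 5 at an unadjusted p under 0.05, 3 called by DESeq2 and 2 by limma-voom. Over the 16 comparisons edgeR called 0 to 4.58% of all genes, and 4.33 to 22.9% had an unadjusted p under 0.05. The shares for DESeq2 and limma-voom are not given here, so their counts are not a result about these lists.

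The genes most like each ligand over the 21 libraries were found by Pearson's r of log2 CPM, as a description with no test, since the libraries share groups and depth. Cd40lg was closest to Commd8 (0.87) and to the granzyme gene Gzmk (0.84). Fasl was closest to Ctla2a (0.88) and Cirbp (0.88), and Tnfsf11 to Litaf (0.87) and Marcksl1 (0.84). Tnfsf8 was closest to Igfbp4 (0.79) and Bach2it1 (0.79), Tnf to Pink1 (0.80) and Zrsr2 (0.80), and Lta to Pibf1 (0.84) and Commd5 (0.83). Ltb had the closest partners, Csnk2b (0.97) and Selenow (0.96), and Tnfsf10 was nearest to Rab11fip2 (0.89) and Sh3bp1 (0.87). Ltb had a median of 3.19 CPM in the 5 libraries with little mitochondrial rRNA and 1011 in the other 16. The part of that split in its r values was not tested. Among the ligands themselves Tnf and Fasl were the most alike (0.68), followed by Tnfsf8 and Cd40lg (0.65) and by Tnfsf11 and Fasl (0.53).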

How the data were processed

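RNA was sequenced from 21 libraries of sorted T cells in 7 groups of 3, with group and replicate number taken from the titles. The authors deposited raw counts, whole numbers of reads assigned to each gene with no scaling. The build mm10 and the tools HTSeq 0.6.0, HISAT2 and CASAVA 1.8.2 are named in the submitters' processing notes. Annotation, strandedness and multi-mapping rules were not given in the sources used here. All 21 columns were matched to a library by name, 0 columns were left unused, and every gene name was present. Depth ran from 14515387 to 28323649 counts per library.

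The 9 ligands were found by symbol. The members, the lists of related genes and the comparisons were chosen with earlier results of these data known. Genes were kept by filterByExpr (minimum count 10, minimum total 15), scaled with TMM factors and fitted over all 21 libraries with a coefficient per group in edgeR 4.0.16 (R 4.3.3), with the robust quasi-likelihood F-test and Benjamini-Hochberg adjustment over all 14996 genes kept. A gene was called at an adjusted p under 0.05. Folds are ratios of group means of TMM-scaled CPM unless they are named as fitted; a group at 0 counts was set to 3 counts over the group, and such folds are lower bounds. Fitted fold changes carry edgeR's default prior count, and their SE was derived from the F statistic. Groups are said to lie apart, or not to overlap, when every library of one is above every library of the other. Gene models are from GENCODE M21 (GRCm38) and promoters from RefSeq (GRCm38.p6), where 8 of the 9 ligands had an entry.

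Every ligand was named, with called members and defining members of the other lists. As a measure of likeness, Pearson's r of log2 CPM (prior count 2) over the 21 libraries was ranked among 6668 genes that reached 20 CPM in a group, and the closest 2 genes per ligand are named. The alternatives were RLE factors, library totals with no factors, DESeq2 1.42.0, limma-voom (limma 3.58.1), no filter, non-robust estimation, the groups of the comparison alone, a replicate block, the 16 libraries with mitochondrial rRNA of at least 0.5% of counts, a term for that set, and leaving out each library. The edgeR, voom and DESeq2 steps were run on simulated data with large changes set in genes with a mean of at least 20 CPM. That run did not cover changes in genes near 0 counts or differences between library sets, and its outcome is not given here.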

Additional observations from a re-analysis of the deposited data

Results flagged for a closer look

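Tnfsf11, which encodes RANKL, had Treg libraries all below Tconv libraries in heart and all above them in spleen. Taken singly, 8.17% and 7.12% of genes had these patterns, and the share with both is not given here. Neither difference passed in edgeR (adjusted p = 0.7 and 0.67). In heart, Tregs had 24.1, 92.3 and 27.5 CPM and Tconvs 374, 170 and 143. In spleen, Tregs had 23.6, 25 and 13.1 CPM and Tconvs 2.34, 8.18 and 0. The difference in heart against the mean of spleen and NDLN was -8.70 on the fitted log2 scale (SE 2.21, unadjusted p = 0.0009574) and did not pass over all genes in edgeR (adjusted p = 0.49), where 1 gene was called (0.00667%). DESeq2 gave -8.15 (adjusted p = 0.00028), edgeR without the filter -8.65 (1.1e-05) and limma-voom -7.45 (0.068). The fitted size depends on the prior count, because NDLN Tconvs held 0 counts.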

How the results depend on the processing

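The number of ligands called by edgeR moved with the setting as follows. The share of all genes called in each setting is not given here, so these moves are not a result about the ligands. For Tregs against Tconvs, heart went from 0 to 1 with DESeq2, limma-voom or no filter (Cd40lg, or Fasl with limma-voom), and spleen from 1 to 3 with DESeq2 or no filter, 2 in the 16 libraries with more mitochondrial rRNA, and 0 with limma-voom or the 2 groups alone. NDLN went from 1 to 3 with DESeq2 or no filter, 2 with RLE factors, and 0 with limma-voom, non-robust estimation, the 16 libraries or the 2 groups alone, and the average over tissues from 2 to 4 with DESeq2 or no filter. Heart against spleen Tregs went from 1 to 3 with DESeq2, 2 with no filter and 0 in the 16 libraries or the groups alone. Heart against NDLN Tregs went from 0 to 2 with DESeq2 and 1 with limma-voom or no filter, and heart against lymphoid Tregs from 2 to 3 with DESeq2 or no filter (Tnf added), 1 with non-robust estimation or a term for the library set, and 0 in the 16 libraries or the groups alone. For heart Tconvs, the count against spleen went from 0 to 1 with DESeq2 and 2 with no filter, and against NDLN and against the lymphoid mean from 2 to 0 in the 16 libraries and 1 with the term; limma-voom gave 3 against the lymphoid mean (Tnf added). MLN against NDLN and against spleen Tregs went from 0 to 1 with DESeq2 or no filter, NDLN against spleen Tconvs from 0 to 2 with either, and the tissue contrast of the Treg and Tconv difference from 0 to 2 with DESeq2 and 1 with no filter. Fewer libraries and fewer groups leave less to estimate the spread from; the cause of the other moves was not tested. Leaving out 1 library gave 0 to 1 ligands called for heart Tregs against Tconvs, heart against spleen Tregs and heart against NDLN Tregs, 0 to 2 for spleen, NDLN and heart against lymphoid Tregs, 2 to 3 for the average, and 1 to 2 for heart against NDLN Tconvs.

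Of 55 ligand differences followed, 11 were called, and 0 of these 11 changed sign in any of 10 settings or on leaving out any of 21 libraries. The averaged Treg and Tconv calls of Tnfsf8 and Cd40lg passed in every one of them. Differences that did not pass changed sign. For Tregs against Tconvs these were Tnfsf10 (-1.11 with limma-voom, -3.21 in the 16 libraries, -0.19 with the term), Tnfsf14 (0.98 in the 16) and Ltb (0.038 with limma-voom, 0.0017 with the replicate block). For heart against lymphoid Tconvs they were Tnfsf8 (-0.50 in the 16, -0.072 with the term), Tnfsf10 (0.26 without factors, 0.81 with limma-voom, 0.16 with the replicate block), Tnfsf14 (-1.25 with limma-voom, -5.44 in the 16), Lta (0.49 in the 16, 0.67 with the term), Ltb (4.74 with the term) and Cd40lg (-0.16 with limma-voom). Fasl in MLN Tregs became -0.58 against NDLN and -0.75 against spleen in the 16. On leaving out 1 library the ranges that crossed 0 were, for Tregs against Tconvs, -3.22 to 0.86 (Tnfsf10), -3.15 to 0.78 (Tnfsf14) and -0.39 to 0.24 (Ltb). For heart against lymphoid Tregs they were -0.58 to 5.95 (Tnfsf14), -0.73 to 2.17 (Ltb) and -0.53 to 0.44 (Cd40lg). For heart against lymphoid Tconvs they were -0.41 to 1.05 (Tnfsf10), -5.46 to 1.73 (Tnfsf14), -1.14 to 0.20 (Lta) and -0.53 to 0.49 (Cd40lg), and for Fasl in MLN Tregs -1.53 to 6.97 against NDLN and -1.64 to 7.34 against spleen.

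The labels do not say that a replicate number marks shared animals or a batch. Of 63 pairs with the same number 3 had deviations that correlated above 0.1, short of the rule for pairing, while 15 of 21 libraries correlated best with one of their own number, a hint from the data. With the number as a replicate block the count of ligands called was the same in each comparison, and the averaged difference was -2.56 for Tnfsf8 and -3.31 for Cd40lg. Using library totals in place of TMM factors moved the median of all genes by 0.39 for heart against lymphoid Tconvs, by 0.48 against NDLN and by 0.33 against spleen Tconvs; the called ligand differences there were far larger. Ligands near 0 counts (Fasl, Tnfsf11 and Tnfsf14 in lymph node) limit the precision of their fitted folds.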
